A study of Homo sapiens with 5 samples.

Results

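The 6 genes TMEM173 (STING), IRF9, IFIT2, IFIT3, CASP1 and TLR1 of DNA sensing, the interferon response and inflammation were followed for their RNA polymerase II (RNAPII) occupancy. They are the rows of the deposited list of transcription start sites (TSSs) that carry these symbols, 6 of the 9767 genes with values in all 3 TSS libraries, each with 1 listed TSS. They were picked by hand with the promoter values in view, because TMEM173 had almost no promoter RNAPII in CFAP20-KO cells and because CASP1 and TLR1 differed between the knockouts. Their promoter densities are therefore a description, and no test is made on them.

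The data came from chromatin immunoprecipitation and sequencing (ChIP-seq) of RPB1, the largest RNAPII subunit, in untreated RPE1 cells, a human retinal pigment epithelial line immortalised with telomerase. The CFAP20/CCNC-dKO cells lacked CFAP20, a protein named for cilia and flagella, and CCNC, which is cyclin C of the Mediator kinase module. The CFAP20-KO cells lacked CFAP20 alone, and the WT cells carried both genes. Every group, WT included, was made in a line with an inducible Cas9 (iCas9) in which p53 and the puromycin resistance gene were knocked out. The labels do not say how many clones stand behind a genotype. Each immunoprecipitation held Drosophila chromatin as a spike-in, 32.6 ng for 22 µg of sample chromatin in CFAP20/CCNC-dKO and 40.0 ng for 28 µg in CFAP20-KO and in WT. The labels name another RPB1 antibody for WT than for both knockouts, so in any comparison with WT the antibody and the genotype cannot be told apart. The WT antibody carries the catalogue number of the spike-in antibody, so that label may be wrong.

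TSS windows came from 1 library per genotype, and differences between genotypes have no replicate check and no p-value. All values are the deposited spike-in normalized coverage density, in arbitrary units per base, so levels of different genes can be compared. Density was averaged over the promoter (-200 to 500 bp from the TSS), over the gene body (2000 to 5000 bp downstream) and over the flanks (2000 to 4500 bp on both sides). The coverage corresponded to 1252262 fragments in CFAP20/CCNC-dKO, 859817 in CFAP20-KO and 6581837 in WT. A promoter above the filter on low values held a median of 17.5 fragments in CFAP20/CCNC-dKO, 14.6 in CFAP20-KO and 113 in WT. The ranges printed with a density or ratio are 95% intervals for counting error only. The measured TSSs include none of CFAP20 or CCNC, and the knockouts were not checked at the deleted genes. Of 8 retinal pigment epithelium markers, 4 were measured (MITF, OTX2, RLBP1 and RPE65), and 2 of these passed the filter. Their summed promoter densities were 2.48 in CFAP20/CCNC-dKO, 2.97 in CFAP20-KO and 3.03 in WT for all 4. The lowest of the 4 was at 0.456 in CFAP20/CCNC-dKO, 0.108 in CFAP20-KO and 0.387 in WT. The mesenchymal marker COL1A1 had 1.24 in CFAP20/CCNC-dKO, 1.16 in CFAP20-KO and 0.837 in WT, and 0 of 4 epithelial markers were measured. Of 6 myeloid markers ITGAM and SPI1 were measured, and neither passed the filter, nor did 2 of the 3 lymphoid markers measured. The filter kept 4891 of the 9767 genes with values, so nothing about cell type is read from these counts.

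STING sits in the membrane of the endoplasmic reticulum and binds the cyclic dinucleotide that the sensor cGAS makes on DNA in the cytosol. It then activates the kinase TBK1 and the factor IRF3, which switches on type I interferon genes. Secreted interferon binds its receptor, JAK kinases are activated, and signalling leads to the complex ISGF3, of which IRF9 is a part. ISGF3 binds the interferon-stimulated response element (ISRE) in the promoters of genes such as IFIT2 and IFIT3, whose products bind RNA or restrict viral translation and support antiviral signalling. CASP1 is the protease that inflammasomes activate to mature interleukin-1β, and TLR1 is a cell-surface receptor that pairs with TLR2 to recognise bacterial lipopeptides.

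IFIT3 and IRF9 stand at both ends of this loop, as a target of ISGF3 and as a part of it, and their promoters are shown to set the elements they carry beside the RNAPII they bear. The sequences are those of RefSeq for GRCh38.p14, from 250 bases before to 50 bases after its start on the plus strand, at chr10:89327747-89328046 for IFIT3 and at chr14:24161015-24161314 for IRF9. Of the 6 genes, 2 were matched in the promoter table. Capitals mark matches to the ISRE core in IFIT3 and to the GAS motif (interferon-gamma activated site) in IRF9.
IFIT3: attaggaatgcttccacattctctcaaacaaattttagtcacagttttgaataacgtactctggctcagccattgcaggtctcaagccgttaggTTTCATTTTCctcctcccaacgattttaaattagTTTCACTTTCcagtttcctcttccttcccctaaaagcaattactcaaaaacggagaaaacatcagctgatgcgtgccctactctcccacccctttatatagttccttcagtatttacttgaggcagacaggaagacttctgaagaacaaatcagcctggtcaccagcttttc
IRF9: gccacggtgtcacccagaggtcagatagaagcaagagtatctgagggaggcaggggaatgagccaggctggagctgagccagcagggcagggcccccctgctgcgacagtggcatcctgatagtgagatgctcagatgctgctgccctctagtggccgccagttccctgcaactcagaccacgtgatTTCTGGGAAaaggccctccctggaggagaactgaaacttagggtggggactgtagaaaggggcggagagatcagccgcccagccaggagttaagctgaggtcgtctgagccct
The ISRE core was searched as GAAANNGAAA and the GAS motif as TTCNNNGAA, on both strands. IFIT3 held 2 ISRE cores on the minus strand, from -156 to -147 and from -122 to -113 bases from the RefSeq start, and no GAS match. IRF9 held 1 GAS match, from -63 to -55, whose letters read as a match on either strand, and no ISRE core. The ISRE core was found in 3.57% of the 35116 promoters of the table and in 59.7% of the 67 promoters of the interferon-stimulated gene list. The GAS motif was found in 7.66% and 23.9% of the same promoters. The listed TSS lay 104 bp upstream of the RefSeq start in IFIT3 and 213 bp upstream in IRF9, so the start shown falls inside the promoter window used for RNAPII in both.

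In WT cells the 6 promoters fell into 3 pairs by level. IFIT3 (2.44, 2.15 to 2.76) and IRF9 (2.41, 2.12 to 2.73) were highest, IFIT2 (1.51, 1.29 to 1.77) and TMEM173 (1.46, 1.24 to 1.71) followed, and CASP1 (0.743, 0.588 to 0.926) and TLR1 (0.562, 0.428 to 0.724) were lowest. The intervals overlapped within each pair and not between pairs. The median WT promoter above the filter was at 1.07, and the median WT promoter of TSSs without a nascent transcription value was at 0.305. All 6 genes passed the filter, also when WT alone was used for it.

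The authors' table gives a nascent transcription (BrU-seq) value for WT gene bodies, with no error and on a scale not given in the sources used here. The order differed from that of promoter RNAPII. TMEM173 had 11.4, the 92.9th percentile of 6306 TSSs with a value, and IRF9 had 7.90, the 90.0th percentile. IFIT3 (3.37) and IFIT2 (3.07) came next at the 79.9th and 78.8th percentiles. CASP1 had 0.918 (57.7th percentile) and TLR1 0.243 (37.5th percentile), the 2 lowest here as at the promoter.

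**Figure D1:**
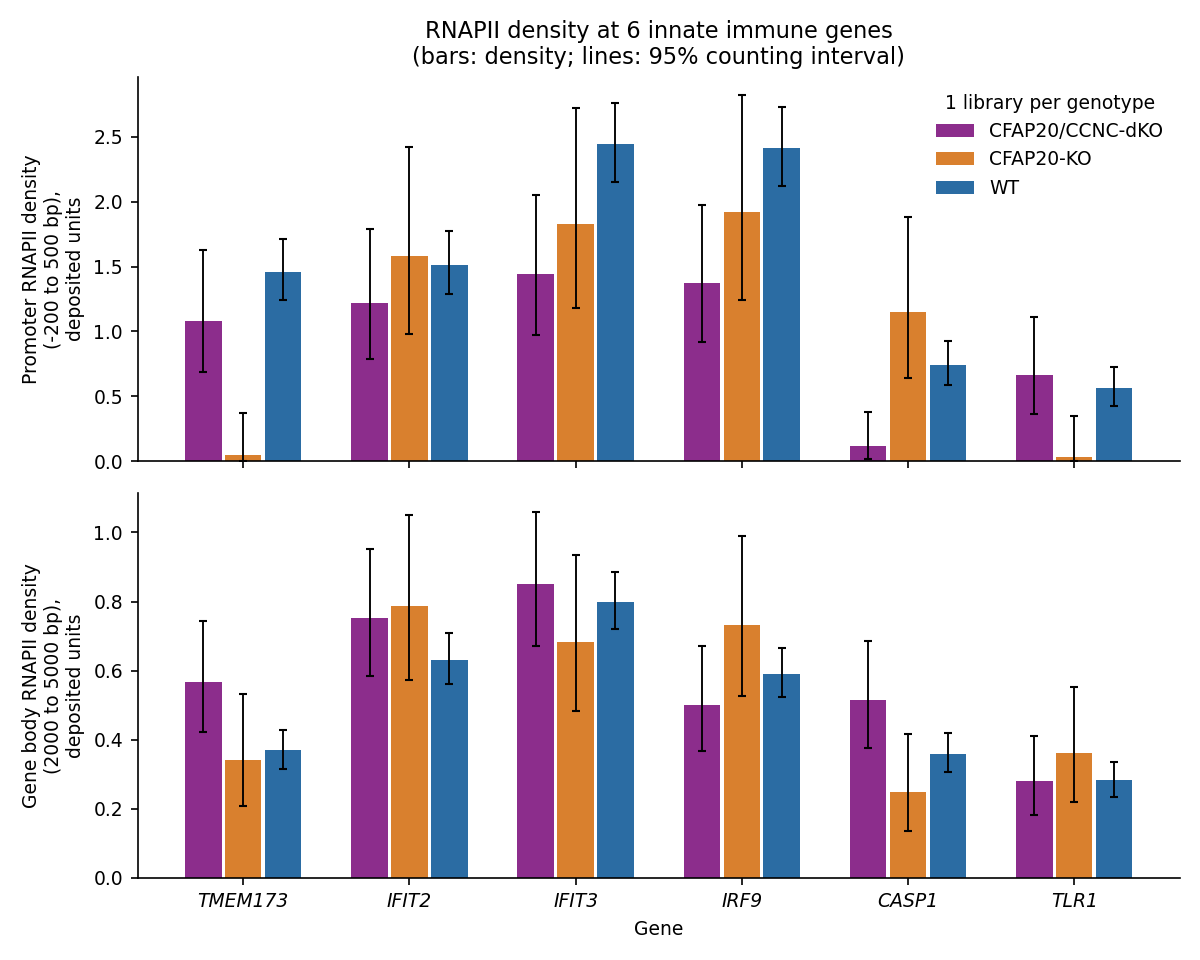
RNAPII density, in the deposited units, at the promoter (upper panel) and in the gene body (lower panel) of the 6 genes, with 1 bar per library and lines for the 95% counting interval. TMEM173 and TLR1 have almost no promoter bar in CFAP20-KO (0.0490 and 0.0361), and CASP1 has a low one in CFAP20/CCNC-dKO (0.116). No gene body is near 0, and neither is the median flank of all TSSs (0.359 in WT).

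TMEM173, which encodes STING, was close to empty at its promoter in CFAP20-KO and not in the other libraries. Its promoter density was 1.08 (0.685 to 1.63) in CFAP20/CCNC-dKO, 0.0490 (2.16e-04 to 0.374) in CFAP20-KO and 1.46 (1.24 to 1.71) in WT. The CFAP20-KO interval did not overlap either of the others, which overlapped each other. TMEM173 was chosen for its low value here, so this gap is a description and no test. These densities correspond to 22.8 fragments in CFAP20/CCNC-dKO, 0.648 in CFAP20-KO and 154 in WT, and the CFAP20-KO library would have held 19.3 fragments here at the WT density. CFAP20-KO stood at 0.0335 of WT (1.47e-04 to 0.260), the second lowest centred log2 ratio of 4891 genes (-4.19). CFAP20/CCNC-dKO stood at 0.741 of WT (0.456 to 1.15), an interval that includes no change. The ratio of CFAP20/CCNC-dKO to CFAP20-KO was 22.1, with an interval from 2.63 to 5187 because less than 1 fragment stands behind the CFAP20-KO value.

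The empty stretch at TMEM173 was short. In CFAP20-KO, 57 of the 70 bins of 10 bp in the promoter window were at 0, against 0 of 70 in the other libraries. In steps of 250 bp, CFAP20-KO density was 0.159 just before the TSS, 0 from 0 to 250 bp and 0.0506 from 250 to 500 bp, and it was 0.513 in the next step. Over the same 4 steps in order CFAP20/CCNC-dKO had 0.739, 0.854, 1.54 and 1.03, and WT had 1.16, 1.47, 1.60 and 1.67. A wider promoter window (-500 to 1000 bp) gave 0.813 of WT (0.576 to 1.12) for CFAP20/CCNC-dKO and 0.235 of WT (0.0997 to 0.473) for CFAP20-KO. The call as lower in CFAP20-KO held in both windows, while its size depended on the window.

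Density further into TMEM173 did not follow its promoter, and in CFAP20-KO and WT it was near that of flanks in general. The median flank of all TSSs was 0.367 in CFAP20/CCNC-dKO, 0.367 in CFAP20-KO and 0.359 in WT. Gene body density was 0.567 (0.422 to 0.745) in CFAP20/CCNC-dKO, 0.342 (0.207 to 0.532) in CFAP20-KO and 0.369 (0.315 to 0.429) in WT. The CFAP20/CCNC-dKO body was at 1.54 of WT (1.10 to 2.11), above WT beyond counting error, and the CFAP20-KO body was at 0.928 of WT (0.548 to 1.49). The downstream flank covers bases of the body and is no second observation of it: its density was 0.620 in CFAP20/CCNC-dKO, 0.330 in CFAP20-KO and 0.363 in WT. The upstream flank had 0.279 in CFAP20/CCNC-dKO, 0.346 in CFAP20-KO and 0.309 in WT, so CFAP20/CCNC-dKO was the highest library downstream and the lowest upstream. Promoter density was 2.41 times the flank in CFAP20/CCNC-dKO, 0.145 times in CFAP20-KO and 4.35 times in WT.

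The listed TMEM173 start lies on chromosome 5 at position 139482790 on the minus strand, in an exon of the gene that GENCODE 44 calls STING1, 32 bp from the nearest annotated start. Its measured neighbours within 250 kb were DNAJC18, a member of the DnaJ co-chaperone family 43.3 kb away, and UBE2D2, a ubiquitin-conjugating enzyme 78.4 kb away. DNAJC18 had a promoter density of 1.12 in CFAP20/CCNC-dKO, 1.51 in CFAP20-KO and 1.51 in WT. UBE2D2 had 2.67 in CFAP20/CCNC-dKO, 2.41 in CFAP20-KO and 2.83 in WT. Neither neighbour was low in CFAP20-KO, with ratios to WT of 1.00 (0.596 to 1.60) and 0.853 (0.573 to 1.23).

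**Figure D2:**
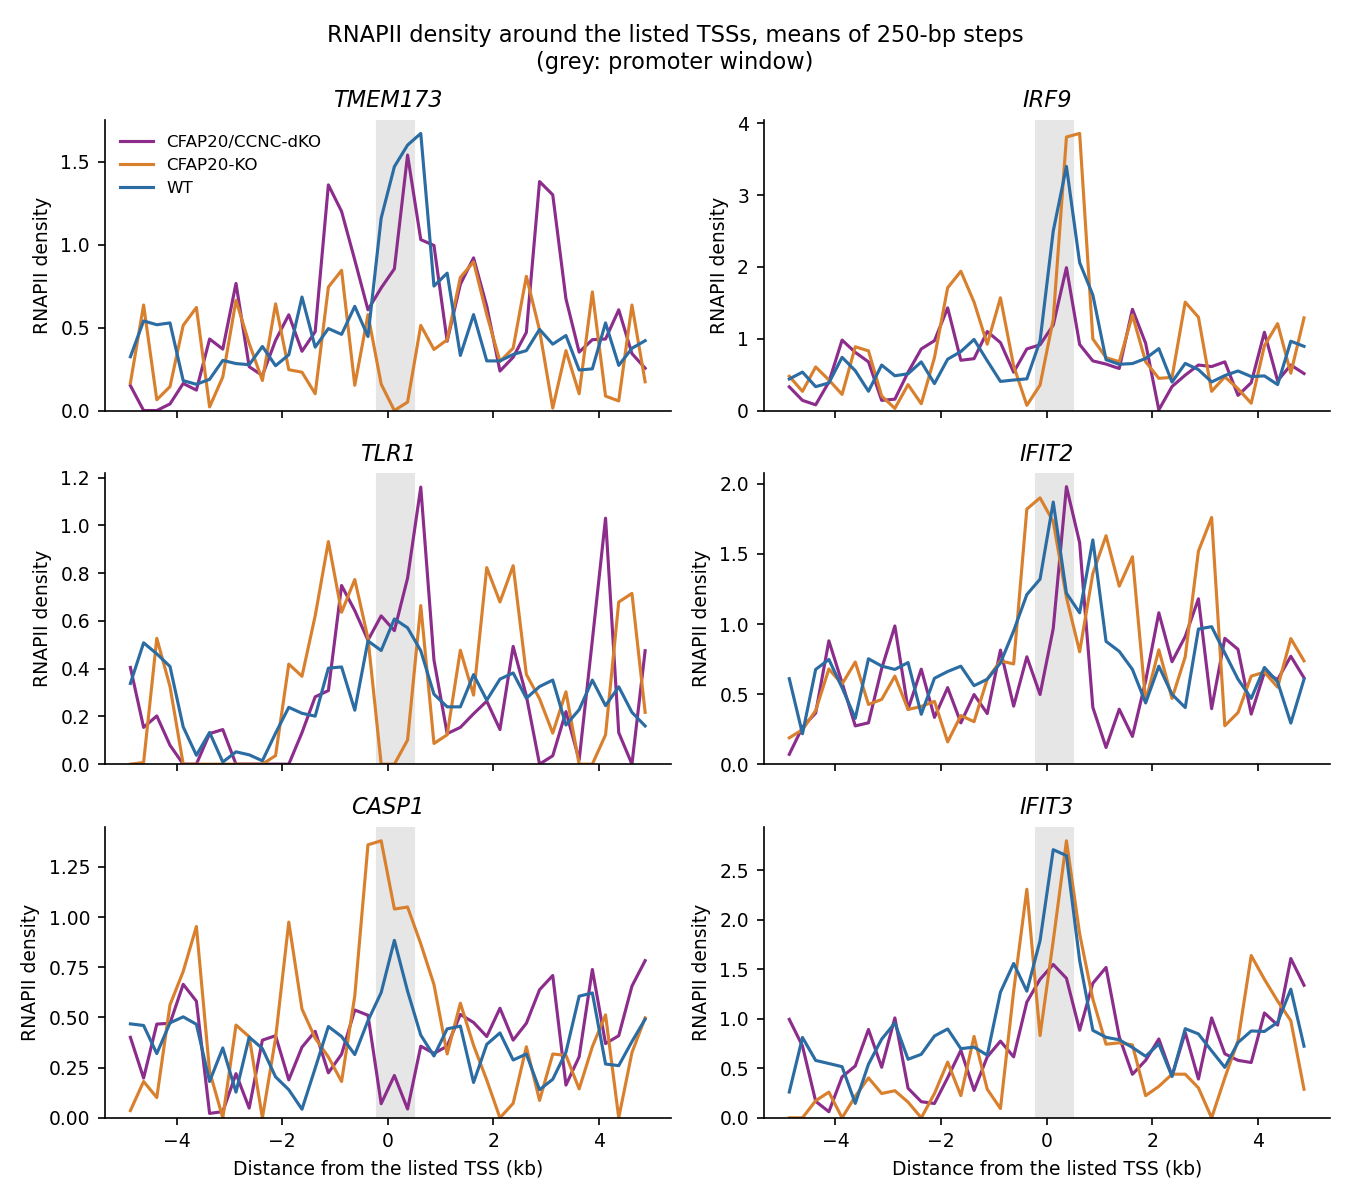
RNAPII density (deposited units) against distance from the listed TSS in kb, as means of 250-bp steps, 1 panel per gene and 1 line per library; the grey band is the promoter window. TMEM173 and TLR1 drop to 0 in CFAP20-KO inside the band and CASP1 drops in CFAP20/CCNC-dKO, while the lines cross each other outside it.

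IRF9, a DNA-binding subunit of ISGF3, kept a promoter peak in every library. Its promoter density was 1.37 (0.919 to 1.97) in CFAP20/CCNC-dKO, 1.92 (1.24 to 2.82) in CFAP20-KO and 2.41 (2.12 to 2.73) in WT. CFAP20/CCNC-dKO lay below WT without overlap, at 0.569 of WT (0.373 to 0.838), and CFAP20-KO overlapped both at 0.795 of WT (0.506 to 1.20). After centring on the median of all genes, the log2 ratios were -0.55 for CFAP20/CCNC-dKO against WT and -0.46 for CFAP20-KO against WT, neither past 1.5-fold. The highest point of the peak lay downstream of the listed TSS, at 360 bp in CFAP20/CCNC-dKO with a density of 2.09, at 480 bp in CFAP20-KO with 4.65 and at 300 bp in WT with 3.77. The CFAP20-KO value was thus above that of WT at the top and below it over the whole window. No interval was made for the peak heights, and that of the window ratio includes no change.

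Gene body density of IRF9 was 0.501 (0.366 to 0.670) in CFAP20/CCNC-dKO, 0.732 (0.526 to 0.991) in CFAP20-KO and 0.591 (0.523 to 0.666) in WT, and all 3 intervals overlapped. The listed start, on chromosome 14 at 24161052 on the plus strand, lies 181 bp upstream of the nearest annotated start. Annotated starts of RNF31, a ubiquitin ligase subunit of the LUBAC complex encoded on the same strand, lie from -3761 to -941 bp of it, so the upstream flank of IRF9 includes part of that gene. Of the 6 measured neighbours within 250 kb, RABGGTA, a subunit of a Rab prenyltransferase, was the nearest that passed the filter, 111 kb away. It had 1.78 in CFAP20/CCNC-dKO, 1.56 in CFAP20-KO and 2.43 in WT.

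IFIT2 and IFIT3, adjacent effector genes of the interferon response, kept their promoter RNAPII in all libraries. IFIT2 had a promoter density of 1.22 (0.791 to 1.79) in CFAP20/CCNC-dKO, 1.58 (0.977 to 2.42) in CFAP20-KO and 1.51 (1.29 to 1.77) in WT, with all intervals overlapping. IFIT3 had 1.44 (0.970 to 2.05) in CFAP20/CCNC-dKO, 1.83 (1.18 to 2.72) in CFAP20-KO and 2.44 (2.15 to 2.76) in WT. CFAP20/CCNC-dKO was at 0.803 of WT (0.507 to 1.22) for IFIT2 and at 0.588 of WT (0.390 to 0.859) for IFIT3. The IFIT3 difference exceeded counting error and, at a centred log2 ratio of -0.50, did not pass 1.5-fold. CFAP20-KO was at 1.05 of WT (0.629 to 1.65) for IFIT2 and at 0.751 of WT (0.473 to 1.14) for IFIT3.

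Gene body density of IFIT2 was 0.752 in CFAP20/CCNC-dKO, 0.787 in CFAP20-KO and 0.632 in WT. For IFIT3 it was 0.852 in CFAP20/CCNC-dKO, 0.682 in CFAP20-KO and 0.800 in WT. The intervals of all 4 body ratios to WT included no change, the ratios running from 0.853 (0.595 to 1.19) for IFIT3 in CFAP20-KO to 1.24 (0.887 to 1.71) for IFIT2 in CFAP20-KO. The highest point of IFIT2 lay 400 bp after the TSS in CFAP20/CCNC-dKO, 250 bp before it in CFAP20-KO and 30 bp after it in WT.

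Both IFIT genes lie on the long arm of chromosome 10, 25.9 kb apart, at 89301954 for IFIT2 and 89327893 for IFIT3 on the plus strand, upstream of the nearest annotated starts by 91 bp and 47 bp. Flank density there was above the median of all TSSs in each library. It was 1.79 times that median in CFAP20/CCNC-dKO, 1.76 times in CFAP20-KO and 1.78 times in WT for IFIT2. For IFIT3 it was 1.56 times in CFAP20/CCNC-dKO, 1.21 times in CFAP20-KO and 1.91 times in WT. RPE1 cells are known to carry an extra copy of part of this arm, and the IFIT levels are given without a correction for copy number. IFIT1, the family member that binds RNA lacking cap methylation, had 0.868 in CFAP20/CCNC-dKO, 1.01 in CFAP20-KO and 1.30 in WT at its promoter. IFIT5 had 1.44 in CFAP20/CCNC-dKO, 2.81 in CFAP20-KO and 2.45 in WT, and was at 0.586 of WT (0.388 to 0.855) in CFAP20/CCNC-dKO. IFIT1B, below the filter, had 0.0817 in CFAP20/CCNC-dKO, 0.506 in CFAP20-KO and 0.485 in WT, and LIPA, a lysosomal lipase outside the family, was at 0.630 of WT (0.404 to 0.945) in CFAP20/CCNC-dKO. Every measured gene within 250 kb, other than RP11-149I23.3, had a lower density in CFAP20/CCNC-dKO than in WT, and the median of all genes was also lower there, by 0.24 on the log2 scale. IFIT genes resemble each other in sequence, and the placing of reads that match several of them is not given in the sources used here.

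CASP1, the inflammasome protease, had the opposite arrangement to TMEM173: it was low in CFAP20/CCNC-dKO and present in CFAP20-KO. Promoter density was 0.116 (0.0189 to 0.376) in CFAP20/CCNC-dKO, 1.15 (0.643 to 1.88) in CFAP20-KO and 0.743 (0.588 to 0.926) in WT. The CFAP20/CCNC-dKO interval lay below the others, which overlapped each other. CASP1 was chosen because the knockouts differed here, so this gap is no test either. The fragments behind these values were 2.45 in CFAP20/CCNC-dKO, 15.1 in CFAP20-KO and 78.5 in WT, and 15.7 fragments would have been held by the CFAP20/CCNC-dKO library at the WT density. CFAP20/CCNC-dKO was at 0.157 of WT (0.0249 to 0.524) and at 0.102 of CFAP20-KO (0.0150 to 0.393), and CFAP20-KO was at 1.54 times WT (0.826 to 2.69). The last ratio was not past 1.5-fold after centring (log2 0.46) and was in the wider window (0.74). In that window CFAP20/CCNC-dKO was at 0.453 of WT (0.224 to 0.830) and CFAP20-KO at 1.90 times WT (1.23 to 2.85).

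Within the CASP1 promoter window, 32 of 70 bins were at 0 in CFAP20/CCNC-dKO and 0 of 70 in CFAP20-KO and in WT. From 0 to 250 bp the density was 0.211 in CFAP20/CCNC-dKO, 1.04 in CFAP20-KO and 0.884 in WT, and from 250 to 500 bp it was 0.0440 in CFAP20/CCNC-dKO, 1.05 in CFAP20-KO and 0.631 in WT. In the gene body the order was turned round. It was 0.515 (0.377 to 0.685) in CFAP20/CCNC-dKO, 0.248 (0.136 to 0.416) in CFAP20-KO and 0.360 (0.307 to 0.419) in WT. The body ratio of CFAP20/CCNC-dKO to CFAP20-KO was 2.08 (1.12 to 4.08), and that to WT was 1.43 (1.01 to 1.99). CASP1 in CFAP20/CCNC-dKO thus combined the lowest promoter with the highest body of the 3 libraries. The CFAP20-KO and WT bodies were below or near the median flank of all TSSs (0.367 in CFAP20-KO and 0.359 in WT). Whether they hold more than background was not tested.

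The listed CASP1 start is the annotated start, in the 5′ UTR of its first exon, on chromosome 11 at 105035250 on the minus strand. It lies in a cluster of inflammatory caspases and of CARD-only genes that derive from CASP1. CARD16, a CARD-only inhibitor of CASP1 with a near-identical sequence, starts 10.1 kb away. Its promoter had 0.0660 in CFAP20/CCNC-dKO, 0.629 in CFAP20-KO and 0.464 in WT, and it did not pass the filter. CFAP20/CCNC-dKO was at 0.142 of WT there (0.00851 to 0.670), from 1.39 fragments. Reads that fit both genes cannot be told apart, so CASP1 and CARD16 may not be independent observations. CASP4, the sensor of cytosolic lipopolysaccharide 65.8 kb away, had 0.421 in CFAP20/CCNC-dKO, 0.464 in CFAP20-KO and 0.543 in WT, and CASP5, 12.1 kb away and below the filter, had 0.159 in CFAP20/CCNC-dKO, 0.250 in CFAP20-KO and 0.439 in WT.

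TLR1, the lipopeptide receptor subunit, had the lowest WT promoter of the 6 and, at its listed start, was close to empty in CFAP20-KO. Promoter density was 0.662 (0.361 to 1.11) in CFAP20/CCNC-dKO, 0.0361 (2.58e-05 to 0.350) in CFAP20-KO and 0.562 (0.428 to 0.724) in WT. The CFAP20-KO interval lay below the other 2, which overlapped. As for CASP1, the choice of the gene used these values, and the gap is no test. The CFAP20-KO value comes from 0.477 fragments, where 7.43 would have been held at the WT density. That is too few for a ratio, and the interval allows CFAP20-KO to reach 0.646 of WT and CFAP20/CCNC-dKO to be as little as 1.62 times CFAP20-KO. CFAP20/CCNC-dKO was at 1.18 times WT (0.607 to 2.14). In the wider window CFAP20-KO was at 0.469 of WT, with an interval of 0.177 to 1.02 that includes no change.

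In CFAP20-KO, 63 of the 70 promoter bins of TLR1 were at 0, and density was 0 from 250 bp before to 250 bp after the TSS. It was 0.527 in the step upstream of that stretch and 0.664 from 500 to 750 bp. Gene body density was 0.280 (0.182 to 0.412) in CFAP20/CCNC-dKO, 0.361 (0.221 to 0.554) in CFAP20-KO and 0.282 (0.235 to 0.335) in WT, with overlapping intervals. The library with the nearly empty promoter thus had the highest body value of the 3. Each body value was below the median flank of all TSSs in its library (0.367 in CFAP20/CCNC-dKO, 0.367 in CFAP20-KO and 0.359 in WT).

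The listed TLR1 start, on chromosome 4 at 38804791 on the minus strand, is an annotated start in a 5′ UTR exon. The gene has 10 annotated starts, and its annotated 5′ end lies at 38856817. That position is also the listed TSS of the related receptor gene TLR6, 52.0 kb away. The TLR6 values given here are therefore also those of an annotated TLR1 start. Which of these genes the RNAPII there belongs to was not tested. The related receptor gene TLR10 lies 21.8 kb away. TLR10 had promoter densities of 0.432 in CFAP20/CCNC-dKO, 0.307 in CFAP20-KO and 0.418 in WT, and TLR6 had 0.247 in CFAP20/CCNC-dKO, 0.449 in CFAP20-KO and 0.390 in WT. Both were below the filter, and the intervals of their ratios to WT included no change in both knockouts. KLF3, a transcriptional repressor 141 kb away, had 1.88 in CFAP20/CCNC-dKO, 2.66 in CFAP20-KO and 2.05 in WT. TLR1 and TLR6 are similar in sequence, and reads shared between them are a limit of the TLR1 value.

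**Figure D3:**
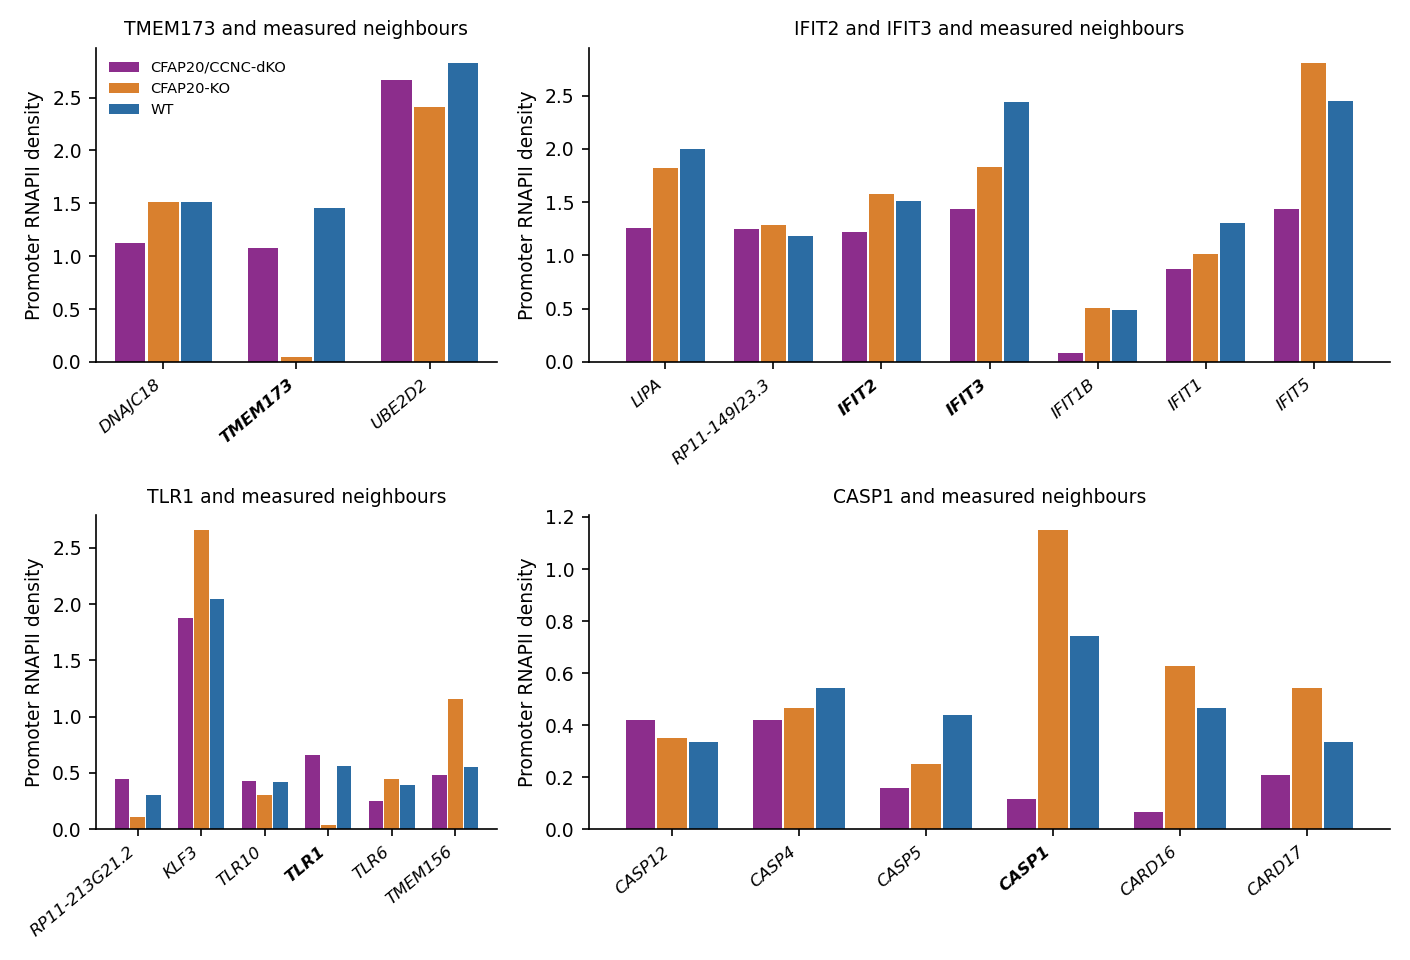
Promoter RNAPII density (deposited units) of TMEM173, IFIT2 with IFIT3, TLR1 and CASP1 (bold) and of the measured genes within 250 kb of TMEM173, IFIT2, TLR1 or CASP1, in chromosomal order, with 1 bar per library. DNAJC18 and UBE2D2 beside TMEM173 have bars above 1 in all 3 libraries, while CARD16 beside CASP1 is low in CFAP20/CCNC-dKO (0.0660) as CASP1 is.

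Counts over the 6 genes were read against all 4891 genes above the filter, with log2 ratios centred on their median and a threshold of 1.5-fold. In CFAP20-KO against WT, 0 of the 6 promoters were higher, where 15.8% of all genes were, and 2 were lower (TMEM173 and TLR1), where 16.7% of all genes were. In CFAP20/CCNC-dKO against WT, 0 were higher and 1 was lower (CASP1), against 18.9% and 16.7% of all genes. Between the knockouts, 2 were higher in CFAP20/CCNC-dKO than in CFAP20-KO (TMEM173 and TLR1) and 1 was lower (CASP1), against 20.9% and 17.7% of all genes. These counts were fixed by the choice of the genes, and nothing is read from them. The comparisons share libraries: WT stands in the first and the second, and each knockout in 2 of the 3. Centring removed a median log2 ratio of 0.13 in CFAP20-KO against WT, -0.24 in CFAP20/CCNC-dKO against WT and -0.40 in CFAP20/CCNC-dKO against CFAP20-KO. Of the genes called, 48.7%, 53.0% and 54.0% were higher in these comparisons, and without centring 64.3%, 28.8% and 21.8% were.

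At gene bodies, 0 of the 6 genes passed 1.5-fold in either knockout against WT, where 7.35% of 4395 genes were higher and 12.8% lower in CFAP20-KO, and 5.12% were higher and 9.90% lower in CFAP20/CCNC-dKO. Between the knockouts, TMEM173 and CASP1 were higher in CFAP20/CCNC-dKO and 0 were lower, against 13.2% and 11.9% of all genes. For TMEM173 the interval of that ratio, 1.65 (0.964 to 2.95), includes no change. Both calls were lost when each TSS was divided by its own flank. That flank covers bases of the body, so the division takes out part of any body difference by construction. The call of TMEM173 was also lost with a body window of 1000 to 4000 bp.

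A promoter under 20% of WT in 1 knockout, with at least 50% of WT in the other, was rare among all genes. It was not limited to TMEM173, TLR1 and CASP1. Under 20% of WT in CFAP20-KO together with at least 50% of WT in CFAP20/CCNC-dKO was met by 18 of 4891 genes (0.368%), TMEM173 and TLR1 among them. The reverse was met by 28 genes (0.572%), CASP1 among them. Under 20% of WT without a condition on the other knockout were 0.777% of genes for CFAP20/CCNC-dKO and 0.695% for CFAP20-KO. A promoter under 50% of its own flank was found for CASP1 in CFAP20/CCNC-dKO, for TMEM173 and TLR1 in CFAP20-KO and for 0 of the 6 in WT, against 1.62%, 2.17% and 0.613% of all genes. By distance over the 3 log2 promoter densities, the genes most like TMEM173 were TDRD7, KRBA1 and CPZ. TDRD7, a Tudor domain protein, had 0.747 in CFAP20/CCNC-dKO, 0.0774 in CFAP20-KO and 1.00 in WT. Those most like CASP1 were FAM84A (0.115 in CFAP20/CCNC-dKO, 1.03 in CFAP20-KO and 0.656 in WT), APOOL and RP11-305L7.7, and the 3 most like TLR1 included RP11-242G20.1 (0.789 in CFAP20/CCNC-dKO, 0.0593 in CFAP20-KO and 0.595 in WT) and CPZ. CPZ, a carboxypeptidase gene, stood in the lists of both TMEM173 and TLR1.

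**Figure D4:**
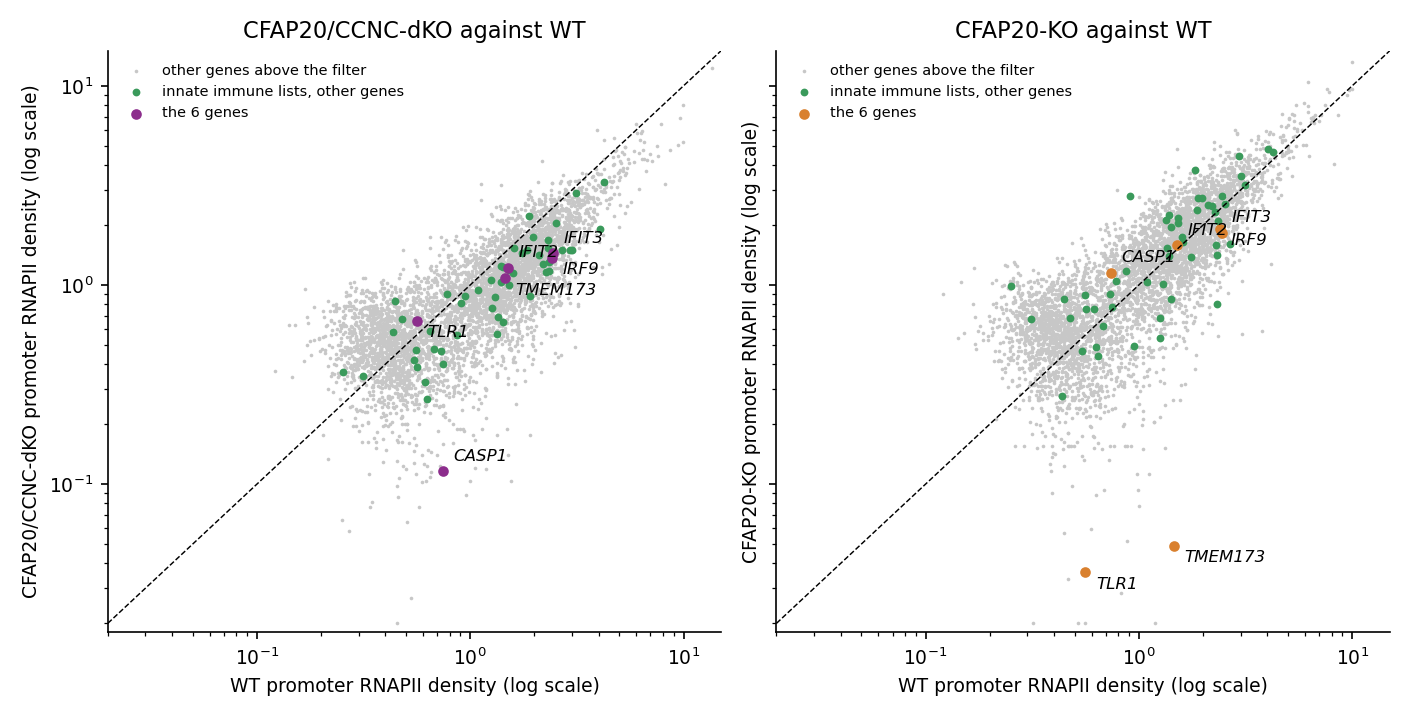
Promoter RNAPII density on log axes of CFAP20/CCNC-dKO (left) and CFAP20-KO (right) against WT for the 4891 genes above the filter; grey points are other genes, green points other members of the innate immune lists and large points the 6 genes, densities under 0.02 are drawn at 0.02, and the dashed line marks equality. TMEM173 and TLR1 sit far below the line in CFAP20-KO only, CASP1 in CFAP20/CCNC-dKO only, and IFIT2, IFIT3 and IRF9 lie within the cloud in both panels.

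Of the 6 genes, 3 could be looked at in replicated WT data, because IFIT2, IFIT3 and TLR1 lie inside the windows of 100 kb on either side of replication origins that were deposited for 3 WT libraries. There the promoter was divided by its flank within each library, in bins of 200 bp. The TSS libraries of the knockouts were put on the same grid. IFIT2 had 1.90 in CFAP20/CCNC-dKO, 2.51 in CFAP20-KO and 2.37, 2.21 and 3.71 in WT replicates 1, 2 and 3 (2.77 ± 0.823, SD, n = 3). The labels do not say whether the WT replicates came from separate cultures. IFIT3 had 2.49 for CFAP20/CCNC-dKO and 4.06 for CFAP20-KO, and 3.44, 1.36 and 2.57 in the WT replicates (2.46 ± 1.04, SD, n = 3). CFAP20/CCNC-dKO lay below the WT range for IFIT2 and inside it for IFIT3, and CFAP20-KO lay inside it for IFIT2 and above it for IFIT3. These ratios carry no counting interval. The promoter window held 25.6 fragments for IFIT2 in CFAP20/CCNC-dKO and 24.2 for IFIT3 in CFAP20-KO, so a difference beyond counting error is not claimed.

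TLR1 had 4.28 for CFAP20/CCNC-dKO and 0.489 for CFAP20-KO, and 2.62, 1.62 and 2.17 in the WT replicates (2.14 ± 0.500, SD, n = 3). CFAP20-KO was below and CFAP20/CCNC-dKO above all 3 WT replicates. TLR1 was chosen because these knockout values differ, so this order is a description and no replicate check of the genotypes. No counting interval was made for these ratios, and the TLR1 promoter window held 0.477 fragments in CFAP20-KO. Low promoters of this kind also appeared between WT replicates at other genes. Of 829 genes whose promoter was at least 2 times its flank in WT replicate 1, the promoter was under 50% of its flank for 1 in CFAP20/CCNC-dKO, 3 in CFAP20-KO (TLR1 among them), 2 in WT replicate 2 and 1 in WT replicate 3. TMEM173, CASP1 and IRF9 lie outside the listed origin windows, so their promoters were seen in 1 WT library.

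**Figure D5:**
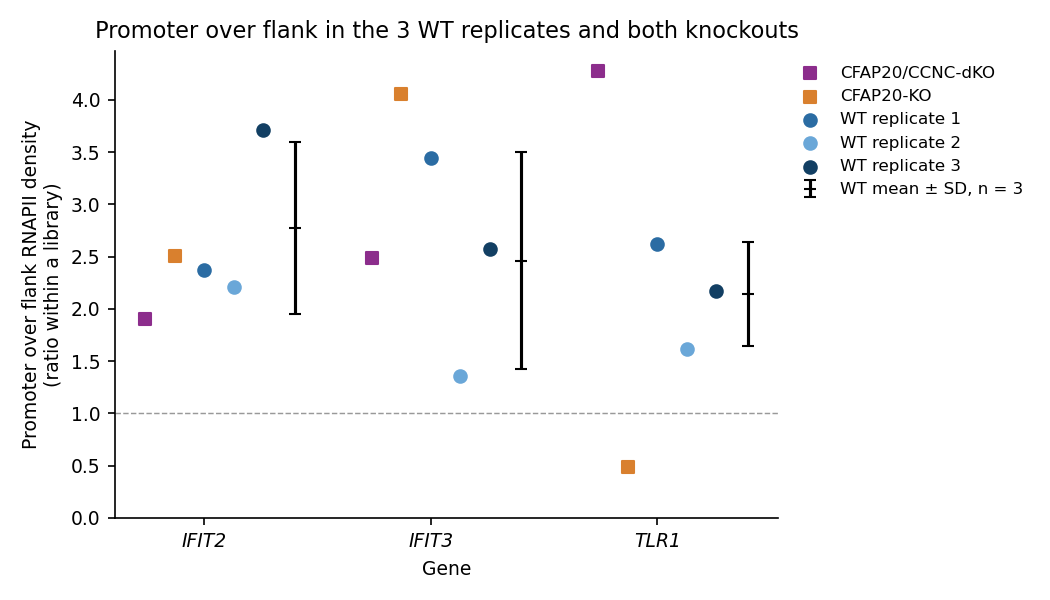
Promoter over flank RNAPII density, a ratio within each library, of IFIT2, IFIT3 and TLR1 in CFAP20/CCNC-dKO and CFAP20-KO (squares, 1 library each) and in 3 WT replicates (circles), with the WT mean ± SD in black; the dashed line marks a promoter as dense as its flank. TLR1 lies below that line in CFAP20-KO only (0.489), and the WT replicates of IFIT3 run from 1.36 to 3.44.

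The wider pathway was read from 6 lists of 167 symbols, of which 76 were measured and 58 passed the filter, the 6 genes among them. Their median centred log2 ratio was 0.00 in CFAP20-KO against WT, with 5 higher and 12 lower, which is 8.62% and 20.7% of the 58. In CFAP20/CCNC-dKO against WT the median was -0.21, with 4 higher and 13 lower, 6.90% and 22.4%. Between the knockouts it was -0.14, with 8 higher and 13 lower, 13.8% and 22.4%. The median of all genes is 0.00 by construction, and the shares of all genes higher and lower were 15.8% and 16.7%, 18.9% and 16.7%, and 20.9% and 17.7% in the 3 comparisons in this order. In CFAP20-KO against WT, the order of the shares depended on the setting. In the promoter window of -500 to 1000 bp, 14.5% of 62 list genes were higher there, where 9.41% of all genes were. With no filter, 21.1% of list genes were lower there, where 24.6% of all genes were. In both comparisons of CFAP20/CCNC-dKO, the list share was smaller for higher and larger for lower in every setting. The gaps varied: between the knockouts without centring, 10.3% of list genes and 10.7% of all genes were higher. The settings reuse the same libraries and both comparisons hold CFAP20/CCNC-dKO, so they are not independent. CASP1, chosen for its values, is among the list genes lower in both, and TMEM173 and TLR1 among those higher between the knockouts. By own flank, 48.3% of list genes were lower in CFAP20/CCNC-dKO against WT, where 30.0% of all genes were. No test of these shares was made. MX2 and TLR2 passed the filter only through their CFAP20-KO density, and both are among the 5 list genes counted as higher in CFAP20-KO against WT.

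Around STING, 7 genes of the DNA sensing list passed the filter. In CFAP20-KO against WT, 3 of them were lower and 0 higher, where 16.7% of all genes were lower and 15.8% higher. The 3 were TMEM173, which was chosen for being low there, IFI16 and ZDHHC7. IFI16, a nuclear and cytosolic DNA sensor, had 0.766 in CFAP20/CCNC-dKO, 0.544 in CFAP20-KO and 1.26 in WT. ZDHHC7, a palmitoyltransferase reported to act on STING, had 1.68 in CFAP20/CCNC-dKO, 0.807 in CFAP20-KO and 2.32 in WT. In CFAP20/CCNC-dKO against WT, 2 were lower, where 16.7% of all genes were: TRIM32 (0.877 in CFAP20/CCNC-dKO, 2.72 in CFAP20-KO and 1.90 in WT) and TRIM56 (0.688 in CFAP20/CCNC-dKO, 1.53 in CFAP20-KO and 1.35 in WT), both ubiquitin ligases that modify STING.

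Among 8 genes of interferon receptor and JAK-STAT signalling, IRF9 included, 0 were past 1.5-fold in CFAP20-KO against WT. Of all genes, 15.8% were higher and 16.7% lower in that comparison. Against WT, 2 of the 8 were lower and 0 higher in CFAP20/CCNC-dKO, where 16.7% of all genes were lower and 18.9% higher. The receptor subunit IFNAR1, one of those lower, had 1.16 in CFAP20/CCNC-dKO, 2.33 in CFAP20-KO and 2.27 in WT. Of 29 interferon-stimulated genes, IFIT2 and IFIT3 included, 2 were higher and 5 lower in CFAP20-KO against WT (median -0.07), which is 6.90% and 17.2%, against 15.8% and 16.7% of all genes. In CFAP20/CCNC-dKO against WT, 4 were higher and 6 lower (median -0.23), 13.8% and 20.7% against 18.9% and 16.7% of all genes. MX2, an antiviral GTPase, had 0.365 in CFAP20/CCNC-dKO, 0.983 in CFAP20-KO and 0.252 in WT. It passed the filter only through CFAP20-KO, and its CFAP20/CCNC-dKO density was at 1.45 times WT, with an interval of 0.557 to 3.32 that includes no change. PML, the organiser of nuclear bodies, was lower in CFAP20/CCNC-dKO, with 0.566 in CFAP20/CCNC-dKO, 2.11 in CFAP20-KO and 1.34 in WT.

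Around CASP1, 3 of 11 measured inflammasome genes passed the filter. IL1B, the cytokine that CASP1 matures, had 1.19 in CFAP20/CCNC-dKO, 2.05 in CFAP20-KO and 1.52 in WT, not past 1.5-fold against WT in either knockout. Around TLR1, 8 genes of Toll-like receptor signalling passed the filter, 7 of them also by WT alone. In CFAP20-KO against WT 3 were higher, TLR2 among them, which passed only through CFAP20-KO, and 2 were lower, TLR1 among them, which was chosen for it, against 15.8% and 16.7% of all genes. In CFAP20/CCNC-dKO against WT 0 were higher and 1 was lower, against 18.9% and 16.7% of all genes. MYD88, the adaptor that TLR1 and TLR2 signal through, had 0.808 in CFAP20/CCNC-dKO, 2.79 in CFAP20-KO and 0.909 in WT, higher in CFAP20-KO. Of 4 genes of RNA sensing and NF-kB, 3 were counted as lower in CFAP20-KO against WT (IFIH1, MAVS and RELA), where 16.7% of all genes were. Their ratios to WT were 0.520 (0.196 to 1.14) for IFIH1, which is also one of the interferon-stimulated genes counted, 0.602 (0.368 to 0.936) for MAVS and 0.689 (0.419 to 1.08) for RELA, and the intervals of IFIH1 and RELA include no change. NFKBIA, the inhibitor of NF-kB, was lower in CFAP20/CCNC-dKO with 1.92 in CFAP20/CCNC-dKO, 4.82 in CFAP20-KO and 4.05 in WT.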

How the data were processed

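RNAPII was measured by ChIP-seq in 5 samples: CFAP20/CCNC-dKO (1), CFAP20-KO (1) and WT (3). The authors deposited binned RNAPII coverage (signal), spike-in normalized at TSSs per the file names, over 5 kb on either side of 9944 TSSs in 10 bp bins (replicate 1 of each genotype) and over 100 kb on either side of replication origins in 200 bp bins (3 WT replicates; normalization not given in the sources used here). A deposited table gave TSSs and a WT BrU-seq signal. The submitters' processing notes list R 4.0.5, STAR 2.7.7a, HOMER 4.8.2, SAMtools 1.11, BWA 0.7.17, Trim Galore 0.6.5 and FastQC 0.11.9, and the builds are hg38 and, for the spike-in, BDGP6. The role of each tool is not given in the sources used here. Of the per-sample values, 2 columns were left out.

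Python 3.11.15, numpy 2.4.6, pandas 2.3.3 and scipy 1.17.1 were used. TSS values were whole multiples of a step (within 0.02 of it) of 0.110 in CFAP20/CCNC-dKO, 0.181 in CFAP20-KO and 0.0444 in WT. Isolated fragments, 847, 2134 and 177 of them, covered 302, 293 and 149 bp, and dividing coverage by step and length gave fragments. Fragment length and depth thus differed between WT and both knockouts and cannot be told apart from genotype. Whether the length taken from so few WT fragments shifts the WT counts and their intervals was not tested. Intervals are exact Poisson (densities) or Clopper-Pearson (ratios), and no ratio is given under 0.5 fragments. The pseudocount of log2 ratios was 0.0411 (10% of the median promoter density), so they understate changes of low genes. They were centred on the median of 4891 genes with a mean promoter density above 0.411, or of 4395 of these of at least 5000 bp for gene bodies. Positions were compared with GENCODE 44 on hg38. Calling and intervals were tested on simulated data. Windows, pseudocount, scaling, filter and choice of TSS were varied.

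The 6 genes and the 6 lists were chosen with earlier results of these data known. Named genes were these 6, up to 3 of each list with the largest change against WT in each knockout, measured genes within 250 kb, and the 3 nearest by promoter densities.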

Additional observations from a re-analysis of the deposited data

How the results depend on the processing

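No paired analysis was possible because the genotypes share only replicate number 1. Of the 36 promoter and gene body ratios of the 6 genes, 25 kept their sign under every alternative run, and 8 were past 1.5-fold, 6 of them under every alternative: TMEM173 and TLR1 in CFAP20-KO against WT and between the knockouts, and CASP1 in CFAP20/CCNC-dKO against WT and CFAP20-KO. The centred log2 ratio of TMEM173 in CFAP20-KO against WT ran from -5.30 to -2.09, that of TLR1 from -4.07 to -1.12, and that of CASP1 in CFAP20/CCNC-dKO against WT from -2.53 to -0.84. Of the ratios not past 1.5-fold, CASP1 in CFAP20-KO against WT and IRF9 in CFAP20/CCNC-dKO against WT passed it under 4 alternatives each, the most of any. Division by the own flank moved IFIT3 in CFAP20-KO against WT to 0.18. Leaving out 1 WT replicate gave promoter over flank means of 2.29 to 3.04 for IFIT2, 1.96 to 3.00 for IFIT3 and 1.90 to 2.40 for TLR1.

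For CFAP20-KO against WT, the list median was -0.16 with a promoter window of -100 to 300 bp, 0.13 without centring and 0.10 with libraries divided by their median flank. List genes higher were 9 with the window of -500 to 1000 bp (14.5% of 62, against 9.41% of all genes), without centring or by own flank, 8 by median flank and 13 with no filter. Over all genes, 460 were higher with the wider window, and 1908 higher and 2403 lower with no filter. Without centring 64.3% of calls were higher, by median flank 60.9%.

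For CFAP20/CCNC-dKO against WT, the list median was -0.45 without centring, -0.48 by median flank and -0.50 by own flank. List genes higher were 1 without centring or by median flank, and list genes lower were 23, 25 and 28 under these 3 settings (39.7%, 43.1% and 48.3%, against 28.1%, 30.0% and 30.0% of all genes). Over all genes, 556 were higher and 1376 lower without centring, 524 and 1468 by median flank, 605 and 1466 by own flank, and 1925 and 2006 with no filter. The share of calls that were higher was 28.8%, 26.3% and 29.2% under the 3 scalings.

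For CFAP20/CCNC-dKO against CFAP20-KO, the list median was -0.54 without centring or by median flank, -0.37 by own flank and -0.25 with no filter. List genes lower were 28, 28 and 23 under the 3 scalings, and 16 were higher and 27 lower with no filter. Over all genes, 524 were higher and 1883 lower without centring, 524 and 1879 by median flank, 678 and 1740 by own flank, and 2722 and 2383 with no filter. The share of calls that were higher was 21.8%, 21.8% and 28.0%. The scalings differ by whether the median log2 ratio is removed, and with no filter 9767 genes enter; other causes were not tested. Depth is one limit of the knockout values: at the WT density, the TLR1 promoter would hold 7.43 fragments in CFAP20-KO.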

Other observations

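Of the genes above the filter that had a promoter in the RefSeq table, 131 carried the ISRE core that IFIT3 shows, and 2877 did not. The genes with the core had a median centred log2 ratio of 0.09 in CFAP20-KO against WT, -0.14 in CFAP20/CCNC-dKO against WT and -0.09 in CFAP20/CCNC-dKO against CFAP20-KO. The genes without it had -0.03, -0.09 and -0.03 in these comparisons, which share libraries. Among interferon-stimulated genes above the filter, 16 with the core had medians of -0.11, -0.27 and 0.12, and 4 without it had -0.35, -0.51 and 0.09. No test of these differences was made.

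CARD16 and IFIT1B, both below the filter, were low in CFAP20/CCNC-dKO as CASP1 was. CARD16 had 1.39 fragments there and IFIT1B 1.72, and IFIT1B was at 0.169 of WT (0.0155 to 0.696). How often genes below the filter look like this was not counted. Other list genes below the filter were low in CFAP20-KO instead, so nothing is read from these examples.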
